A study of Mus musculus with 8 samples.

Results

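The caspase-1, IL-18 and IL-18 receptor axis was followed through 9 genes, Casp1, Casp4, Il18, Il18r1, Il18rap, Il1b, Pycard, Nlrp3 and Gsdmd. These are 9 of 18194 genes that the platform annotation pairs with probe sets of their own, and all 12 probe sets of the 9 were taken, from 45101 on the array. A single probe set stood for 7 of the genes. The genes were chosen with their differences between expansions and polyclonal cells already known, so those differences are given as a description and carry no test. RNA came from CD8 T cells of 4 aged female mice, sorted from spleen and lymph nodes as CD8+ CD122+ MHC II-. From each mouse a clonal expansion, carrying 1 T cell receptor V beta chain, was set against polyclonal memory cells lacking that chain. Mouse 1 (C57BL/10SnJ, 20 months, Vb3) gave the only expansion that the labels place in the integrin alpha4-high subclass. The alpha4-low expansions came from mouse 2 (C57BL/10SnJ, 20 months, Vb8.1/8.2), mouse 3 (C57BL/10SnJ, 23 months, Vb8.3) and mouse 4 (B10.BR, 23 months, Vb14). Each expansion stands for 1 clone of 1 animal, and everything said of the alpha4-high subclass rests on 1 pair. Sort purity was 91, 95, 96 and 98% in expansions 1 to 4, but 97, 75, 66 and 97% in polyclonal samples 1 to 4.

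Caspase-1 is the protease of the inflammasome, a cytosolic complex in which a sensor such as NLRP3 recruits the adaptor ASC (the product of Pycard) and, through it, pro-caspase-1. The active enzyme cuts the precursors of the cytokines IL-1 beta and IL-18 into their secreted forms, and it cuts gasdermin D, whose freed end makes pores in the plasma membrane. Mouse Casp4, long called caspase-11, encodes the relative that recognises cytosolic lipopolysaccharide directly. IL-18 binds a receptor of a ligand-binding chain (Il18r1) and an accessory chain (Il18rap) that signals through MyD88. Memory CD8 T cells are known to carry this receptor and to make interferon gamma when IL-18 and IL-12 reach them together, without antigen.

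The starts of the genes whose values set the subclasses apart are shown because Casp1, Casp4 and Il18 read high and low in the same samples and Il18r1 the other way. In the RefSeq gene order Casp1 and Casp4 are direct neighbours on chromosome 9, which also holds Il18, and Il18r1 and Il18rap are direct neighbours on chromosome 1. The windows hold 250 bases before and 50 after the annotated start, are taken from RefSeq (GRCm38.p6) and are written 5′ to 3′, and 8 of the 9 genes had such an entry. Capitals mark matches, on either strand, to the NF-kB consensus or to TTCNNNGAA (a gamma-activated site). The windows lie at chr9:5298267-5298566, plus strand for Casp1, chr9:5308599-5308898, plus strand for the upstream of 2 Casp4 starts, chr9:50554450-50554749, plus strand for Il18, and chr1:40465302-40465601, plus strand and chr1:40465756-40466055, plus strand for starts 1 and 3 of the 3 Il18r1 starts.
Casp1: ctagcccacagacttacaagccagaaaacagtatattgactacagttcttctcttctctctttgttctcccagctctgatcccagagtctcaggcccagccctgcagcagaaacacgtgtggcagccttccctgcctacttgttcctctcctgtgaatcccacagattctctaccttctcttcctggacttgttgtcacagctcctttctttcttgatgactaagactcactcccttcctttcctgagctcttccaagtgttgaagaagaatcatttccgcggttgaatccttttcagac
Casp4: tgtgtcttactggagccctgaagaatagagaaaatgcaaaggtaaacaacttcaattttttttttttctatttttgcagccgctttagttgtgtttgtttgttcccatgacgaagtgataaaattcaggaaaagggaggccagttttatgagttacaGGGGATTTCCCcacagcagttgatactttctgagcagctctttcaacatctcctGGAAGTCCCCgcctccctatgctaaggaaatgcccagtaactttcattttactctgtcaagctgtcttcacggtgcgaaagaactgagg
Il18: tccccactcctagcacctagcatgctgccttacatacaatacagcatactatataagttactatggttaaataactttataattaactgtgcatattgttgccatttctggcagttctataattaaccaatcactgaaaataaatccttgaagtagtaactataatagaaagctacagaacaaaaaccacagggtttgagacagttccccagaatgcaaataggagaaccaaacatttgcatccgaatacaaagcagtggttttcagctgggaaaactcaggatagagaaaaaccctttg
Il18r1, start 1: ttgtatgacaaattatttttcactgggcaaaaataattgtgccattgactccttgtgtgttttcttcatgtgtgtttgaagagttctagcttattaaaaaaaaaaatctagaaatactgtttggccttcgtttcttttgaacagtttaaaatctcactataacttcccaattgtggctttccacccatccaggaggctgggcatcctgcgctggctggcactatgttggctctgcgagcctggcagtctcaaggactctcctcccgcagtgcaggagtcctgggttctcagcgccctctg
Il18r1, start 3: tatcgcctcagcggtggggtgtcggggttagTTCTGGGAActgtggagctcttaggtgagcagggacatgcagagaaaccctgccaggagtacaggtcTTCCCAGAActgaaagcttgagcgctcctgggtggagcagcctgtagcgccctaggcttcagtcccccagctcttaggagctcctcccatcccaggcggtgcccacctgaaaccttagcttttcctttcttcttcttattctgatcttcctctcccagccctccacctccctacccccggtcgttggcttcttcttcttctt
The NF-kB consensus, which 8.46% of 32851 promoter windows hold, matched 3 times in the Casp4 window, where 2 of the matches overlap, and 0 times in the windows of Casp1, Il18 and Il18r1. A looser form of it, searched first, was held by the Casp1 window too. The gamma-activated site motif, held by 8.3% of the windows, matched 2 times at Il18r1 start 3 and not in the other windows printed. It did not match at Il18r1 start 2 either, and 0 of the 8 genes held it at a first start. The NF-kB consensus was held at a first start by 2 of the 8, Casp4 and Nlrp3, and Nlrp3 did not split the subclasses. TGANTCA (AP-1, 7.81% of windows) and GGTGTGA (T-box, 3.98%) matched in none of these windows. These matches are letters in a window, and the arrays say nothing about binding there.

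The deposited values are MAS5 signals, scaled so that the trimmed mean of every array is 500. Median signal was between 46.5 and 75.1 per array. Background was taken per array as the level that 95% of 27 bacterial probe sets, with no transcript added, did not pass, and was between 33.7 and 61.9. Of the 12 probe sets, 9 were above that level on all 8 arrays and were also bright enough for the fit over all probe sets (mean signal above about 45.3). The probe sets of Nlrp3 and Gsdmd and the dimmest of 3 for Pycard were not. All 9 measured CD8 T cell markers were above background on every array. Of 6 measured NK cell markers, Klre1, Klra8 and Eomes, which memory CD8 T cells can also express, were above it on all arrays, Tyrobp on 6, Fcer1g on 5 and Ncr1 on none. Their summed signal was 8907 to 20359 in the alpha4-low expansions, 17588 to 47092 in the polyclonal samples and 27193 in expansion 1, and the part of NK cells in the results was not tested. The scanner records set the array of expansion 4 apart from the other 7. The number of arrays limits the precision, and fewer cells with a transcript and less of it per cell cannot be told apart in these bulk samples. Levels of different genes were not compared, since probe sets differ in brightness.

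In the alpha4-low expansions both caspase genes and Il18 read below the polyclonal cells of every mouse, and in the alpha4-high expansion all 3 read above them. Il18r1 did the reverse, reading somewhat higher in each alpha4-low expansion and 7.60-fold lower in the alpha4-high one. The adaptor, the sensor, IL-1 beta and the accessory receptor chain showed no such split. Of the 7 genes with a tested probe set, taken by the brightest, 3 were lower in all 3 alpha4-low pairs (15.0% of the 22518 tested probe sets were) and 1 was higher in all 3 (9.99%). In pair 1, 5 of the 7 were higher (53.8%), 2 of them by at least 2 on the log2 scale (2.92%), and 1 was lower by at least 2 (2.84%). Casp1, Casp4 and Il18 combined a higher value in pair 1 with lower values in the other 3, as 8.96% of tested probe sets did, and Il18r1 had the mirror pattern, as did 5.2%. Expansion 1 was the highest of the 8 samples for 5 of the 7 genes (11.6%) and the lowest for 2 (18.3%). The median difference of the 7 was -0.66 in the alpha4-low pairs, 0.79 in pair 1 and -1.45 for the difference between them, beside -0.07, 0.06 and -0.10 for all tested probe sets. Nothing is read from these shares, because the genes were chosen on them.

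**Figure D1:**
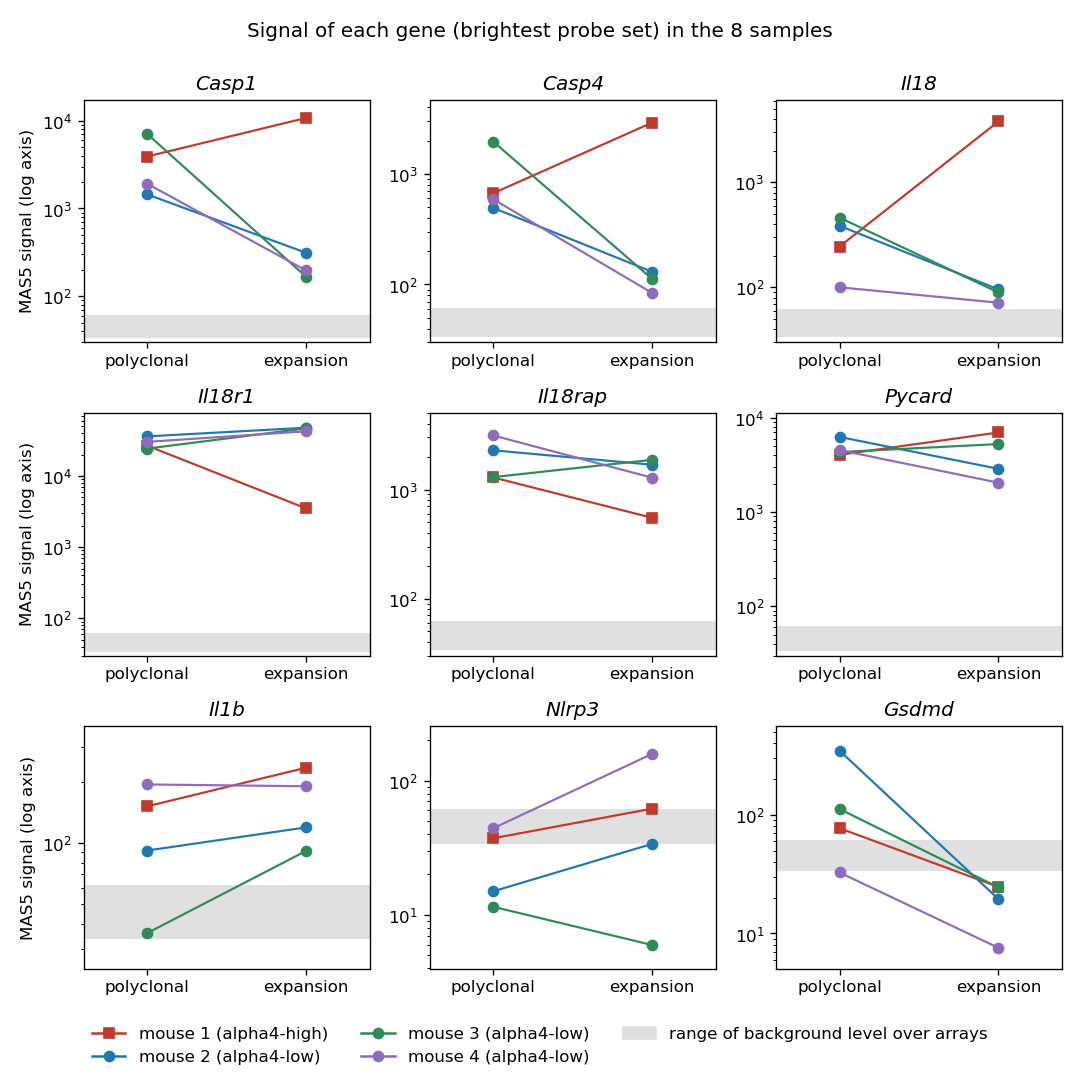
MAS5 signal (log axis) of the brightest probe set of each of the 9 genes in the polyclonal sample (left) and the expansion (right) of each mouse, joined by a line; squares are mouse 1 (alpha4-high), circles mice 2 to 4 (alpha4-low), and the grey band is the range of the background level over the arrays (33.7 to 61.9). Casp1, Casp4 and Il18 are higher in the expansion of mouse 1 and lower in those of mice 2 to 4, Il18r1 the other way, and Gsdmd ends below the band in every expansion.

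Casp1, the gene of the inflammasome protease, read 3903, 1447, 7066 and 1914 in polyclonal samples 1 to 4. In expansion 1 it read 10718, and in the alpha4-low expansions 2, 3 and 4 it read 313, 167 and 197. The 3 alpha4-low expansions lay below every polyclonal sample, and expansion 1 lay above every other sample. Their mean signal was 225 ± 77.4 against 3475 ± 3118 in their partners (SD, n = 3 each). The log2 differences within mice 2, 3 and 4 were -2.19, -5.36 and -3.25, a mean of -3.60 ± 1.62 (SD, n = 3) on the log2(signal + 5) scale, or 12.1-fold. In pair 1 the difference was 1.46, or 2.74-fold upward. The subclasses therefore differed by -5.06 in their paired difference.

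Polyclonal sample 3, with the highest Casp1 of its group, also had the lowest sort purity (66%), and the alpha4-low mean was -2.72 without pair 3, -4.31 without pair 2 and -3.78 without pair 4. In pair 4, where both samples were at least 97% pure, Casp1 was 9.51-fold lower in the expansion. Mouse 4 was also the only B10.BR animal, and the array of its expansion is the one whose scanner record differs. The part of strain or scan in this fold was not tested. Polyclonal samples 1 and 4, of equal purity, read 3903 and 1914. Of the 14 macrophage and monocyte markers 5 were above background on all arrays, namely Csf1r, Lyz2, Adgre1, Mpeg1 and Cybb. C1qb was above it on 7 arrays, Cd14 on 3, Itgam on 1 and C1qc on none. The list summed to 2125 to 3556 in the alpha4-low expansions, 1637 to 2890 in the polyclonal samples and 4674 in expansion 1. Expansion 1 thus had both the highest Casp1 and the highest sum, led by Csf1r (1373) and Lyz2 (1128). Mpeg1 (848, against 1070 in expansion 4), Cybb (376, against 559 in expansion 2) and Adgre1 (99.8, against 116 in polyclonal sample 1) were not highest there. The part of such cells in the Casp1 value of expansion 1 was not tested.

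In the fit over all 22518 probe sets with mouse as a block, Casp1 was the one gene of the axis called in the alpha4-low comparison (limma, adjusted threshold 0.05), where 0.0533% of all probe sets were called, 0.0488% as lower and 0.00444% as higher. By size, Casp1 ranked 16 from the most negative of all probe sets. In the difference between subclasses the axis had 0 calls, against 0.0533% of all probe sets, 0.0222% as lower and 0.0311% as higher. Over all 4 pairs 0% of probe sets were called, with 731 at an unadjusted p under 0.05. The Casp1 call was lost without an intensity trend and without the mouse block, settings under which 0 probe sets were called in the alpha4-low comparison (1097 and 621 at an unadjusted p under 0.05). These contrasts were the ones that chose the genes, so the calls describe the fit and support nothing.

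Casp4, the gene of the lipopolysaccharide-sensing caspase, followed Casp1 closely. It read 669, 492, 1954 and 589 in polyclonal samples 1 to 4, 2908 in expansion 1, and 130, 112 and 83.7 in expansions 2, 3 and 4. Again expansion 1 was the highest sample and the 3 alpha4-low expansions were the lowest. The log2 differences were -1.88, -4.06 and -2.75 in pairs 2, 3 and 4 (mean -2.90 ± 1.10, SD, n = 3, or 7.45-fold) and 2.11 in pair 1, where the expansion was 4.32-fold higher. Within the polyclonal samples Casp1 and Casp4 put the mice in the same order, 3, 1, 4 and 2. Casp1 and Casp4 are related genes, and whether their probe sets detect each other's transcripts was not tested.

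Il18, the gene of the cytokine precursor that caspase-1 cuts, had the largest gap between the subclasses of the 9 genes. It read 245, 386, 462 and 100.3 in polyclonal samples 1 to 4 and 95.7, 89.5 and 71.5 in expansions 2, 3 and 4, but 3804 in expansion 1. On the log2(signal + 5) scale that value stood 15.2-fold above its partner, and its plain signal was 8.23 times that of the next highest sample. The alpha4-low expansions were alike, spanning 1.32-fold, and lay just below polyclonal sample 4, the lowest of its group. These are low signals, with background levels of 51.7, 61.9 and 33.7 in expansions 2, 3 and 4 and 40.8 in polyclonal sample 4. How far background narrows this span and the fold of pair 4 was not tested. The paired differences were -1.96, -2.31 and -0.46 in pairs 2, 3 and 4 (mean -1.57 ± 0.98, SD, n = 3), and 3.93 in pair 1. In pair 4, the alpha4-low pair with 97 and 98% purity, Il18 was thus only 1.38-fold lower, while Casp1 and Casp4 were 9.51-fold and 6.70-fold lower there. This pair is also the one of the B10.BR mouse and of the array with the differing scanner record. The difference between subclasses was -5.50, which ranked 29 from the most negative of 22518. The lower alpha4-low values therefore rest largely on mice 2 and 3. Their partners had purities of 75 and 66%, and expansion 1, with the high value, had a purity of 91%. The part of sort purity in these Il18 values was not tested.

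Il18r1, the gene of the chain that binds IL-18, stood against the cytokine gene in both subclasses. It read 26651, 36010, 24252 and 30169 in polyclonal samples 1 to 4, a span of 1.48-fold. Expansions 2, 3 and 4 read 47644, 46672 and 42422, all above every polyclonal sample and within 1.12-fold of each other. Expansion 1 read 3504, below every other sample by at least 6.92-fold. The log2 differences were 0.40, 0.94 and 0.49 in pairs 2, 3 and 4 (mean 0.61 ± 0.29, SD, n = 3, or 1.53-fold upward) and -2.93 in pair 1. Quantile normalization gave a smaller alpha4-low mean, 0.31, with the sign kept. Groups standing apart this way, all 3 alpha4-low expansions above all 3 partners, were found for 3.19% of tested probe sets, and the opposite arrangement, shown by Casp1, Casp4 and Il18, for 4.92%. Whether such bright signals are compressed was not tested.

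Il18rap, the gene of the accessory chain, did not follow Il18r1 in the alpha4-low pairs. Its brighter probe set read 1290, 2288, 1300 and 3132 in polyclonal samples 1 to 4, 549.8 in expansion 1 and 1688, 1873 and 1282 in expansions 2, 3 and 4. Expansion 1 was again the lowest sample, 2.33-fold under its partner, while the alpha4-low expansions overlapped the polyclonal samples. The differences of -0.44, 0.52 and -1.29 in pairs 2, 3 and 4 had mixed signs, with a mean of -0.40 ± 0.91 (SD, n = 3). The dimmer probe set also had its lowest value in expansion 1 (324, against 414 in the partner) and differences of 0.39, -0.40 and -0.06 in the alpha4-low pairs. Both receptor genes were therefore lowest in the alpha4-high expansion, a sample position shared by 18.3% of tested probe sets.

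**Figure D2:**
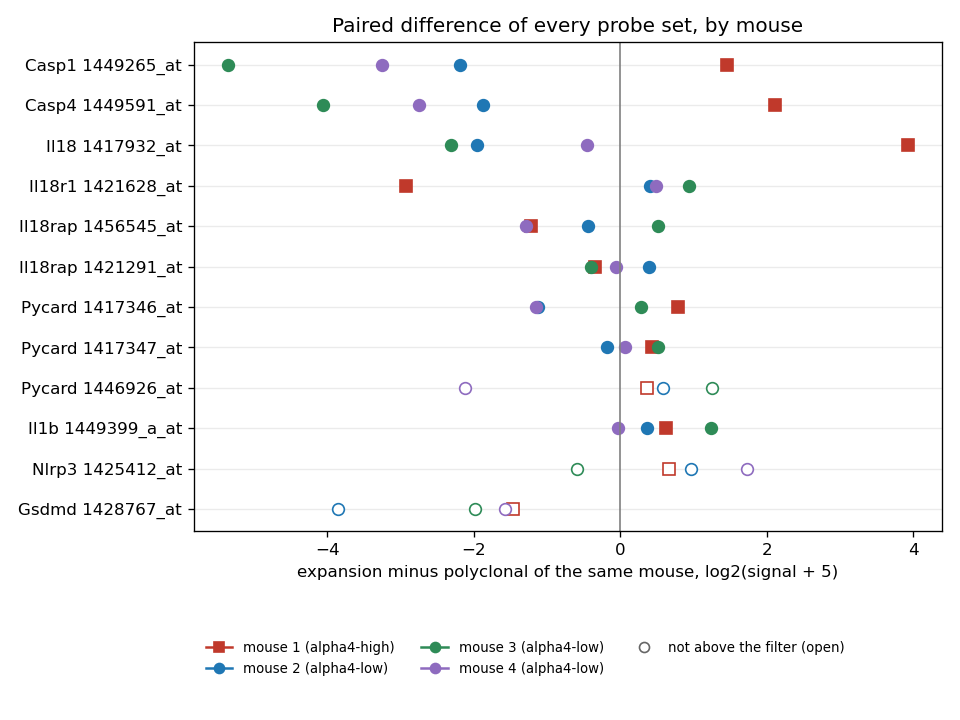
Difference between expansion and polyclonal cells of the same mouse on the log2(signal + 5) scale for all 12 probe sets, with squares for mouse 1 (alpha4-high), circles for mice 2 to 4 (alpha4-low) and open symbols for probe sets too dim for the fit. The square lies to the right of every circle for Casp1 (1.46), Casp4 (2.11) and Il18 (3.93) and to the left for Il18r1 (-2.93). It also lies to the right for the brightest Pycard probe set (0.79, next to a circle at 0.28) and for Gsdmd (-1.47, next to a circle at -1.58). Squares and circles mix for both Il18rap probe sets, the dimmer Pycard probe sets, Il1b and Nlrp3.

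Pycard, the gene of the adaptor ASC, did not split the subclasses clearly. Its brightest probe set read 4036, 6257, 4319 and 4531 in polyclonal samples 1 to 4, 6980 in expansion 1 and 2870, 5258 and 2045 in expansions 2, 3 and 4. Expansion 1 was the highest sample, by 1.12-fold over polyclonal sample 2, and the alpha4-low expansions overlapped the polyclonal samples. The differences were 0.79 in pair 1 and -1.12, 0.28 and -1.15 in pairs 2, 3 and 4 (mean -0.66 ± 0.82, SD, n = 3). A much dimmer Pycard probe set differed by only 0.43 in pair 1 and by -0.18, 0.52 and 0.07 in the others. The dimmest, above background on 4 of 8 arrays, differed by 0.36 in pair 1 and by 0.59, 1.25 and -2.12 in pairs 2, 3 and 4. The 3 probe sets thus disagree in sign in pairs 2 and 4.

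Nlrp3, the gene of the sensor, was above the background of its array in 3 of 8 samples. It read 37.2, 15.0, 11.5 and 44.2 in polyclonal samples 1 to 4, 61.8 in expansion 1 and 33.8, 5.97 and 158 in expansions 2, 3 and 4. These 3 were expansions 1 and 4 and polyclonal sample 4, and expansion 4 was well above its background of 33.7. No fold is given for it, and expansion 4, with the highest reading, is the array whose scanner record differs.

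Il1b, the gene of the other cytokine precursor, stayed low and did not separate the subclasses. It read 152, 91.9, 35.9 and 195 in polyclonal samples 1 to 4, 236 in expansion 1 and 119.6, 91.5 and 191 in expansions 2, 3 and 4. The paired differences were 0.62 in pair 1 and 0.36, 1.24 and -0.03 in the alpha4-low pairs (mean 0.52 ± 0.65, SD, n = 3), so the difference between subclasses was -0.09. The 1.24 of pair 3 rests on polyclonal sample 3, whose 35.9 barely passed its background of 34.7. Il1b was lowest in polyclonal samples 3 and 2 and expansion 3, which were also the samples with the lowest summed signal of 9 neutrophil markers (1802, 2537 and 1374, against 2709 to 10138 elsewhere). S100a8, the best known of these, read 633, 779 and 475 in them. Not every marker of the list followed the sum. Mmp8 had its highest readings in polyclonal samples 2 (432) and 3 (169), and S100a9 read 207 in polyclonal sample 2 but 176 in polyclonal sample 1. In the other samples the orders differed, since expansion 1, with the most Il1b (236), had a sum of 4790, while expansion 2, with 119.6, had 9940. The part of neutrophil RNA in the Il1b signal was not tested.

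Gsdmd, the gene of the pore-forming protein, read lower in the expansion of each of the 4 mice, but at signals around background. It read 77.2, 348, 112 and 32.7 in polyclonal samples 1 to 4, 24.7 in expansion 1 and 19.5, 24.5 and 7.57 in expansions 2, 3 and 4. None of the 4 expansions was above background, while 3 of the 4 polyclonal samples were. Against background, the expansion was at least 1.59-fold lower than its partner in mouse 1, at least 6.23-fold in mouse 2 and at least 1.75-fold in mouse 3. Mouse 4 gives no bound, since its partner was itself below background. The bound compares the partner with the background of the expansion's array. The brightest reading came from polyclonal sample 2, of 75% purity, followed by sample 3, of 66%. The 9 measured dendritic cell markers, 1 of them above background on all arrays, summed to 419, 1659, 1223 and 863 in polyclonal samples 1 to 4 and to 511, 1287, 609.8 and 1157 in expansions 1 to 4. That sum was highest in polyclonal sample 2 but overlapped between expansions and polyclonal cells, and its part in the Gsdmd signal was not tested.

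Among 10406 genes with a tested probe set, Casp4 had the pattern nearest to that of Casp1. The measure was the root mean square difference of mean-centred log2 values over the 8 arrays, which was 0.55 for Casp4, where the values of Casp1 itself deviated from their mean by 2.18. Ryr3 (0.59), an intracellular calcium channel gene, came next, followed by Maf (0.66), a transcription factor gene, Itga4 (0.68), the integrin gene that names the subclasses, and Ctla4 (0.74), a gene of an inhibitory receptor. Itga4 read 3182, 2676, 8221 and 1559 in polyclonal samples 1 to 4, 11824 in expansion 1 and 197, 435 and 120 in expansions 2, 3 and 4, the same high and low samples as Casp1. Ryr3 was below background in all 3 alpha4-low expansions. Il18 stood at place 43 by this measure (1.27) and Pycard at 855 (1.93).

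The genes nearest to Il18 were others. Cd80 (0.63), which encodes a ligand of CD28 and CTLA-4, was first, followed by the calcium-binding protein gene S100a4 (0.64), Perp (0.69), a gene activated by p53, Sdcbp2 (0.70) and Ttyh1 (0.70). In expansion 1 S100a4 read 17320, where the partner had 1744, and it read 326, 413 and 224 in expansions 2, 3 and 4. Cd80 read 119 in the mouse 1 partner and 710.2 in the expansion, and was above background on 5 arrays, and Ttyh1 was above it on 3. Casp4 came at place 38 (0.95) and Casp1 at place 180 (1.27). Il18r1 lay near the far end of both orders, at place 10311 from Casp1 and 10313 from Il18.

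**Figure D3:**
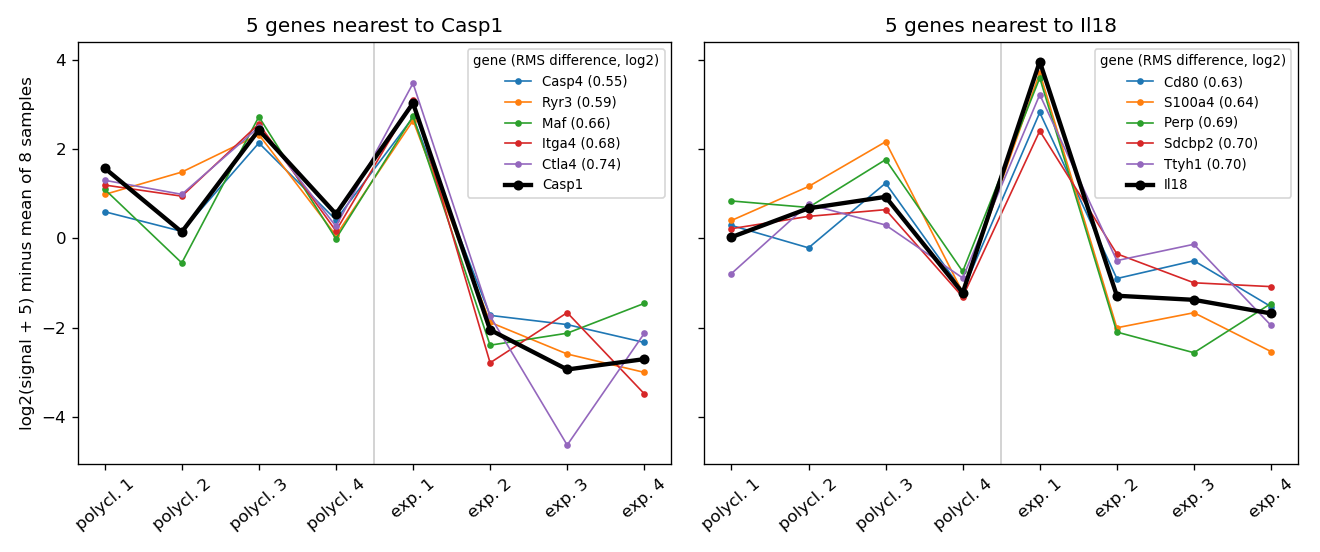
Mean-centred log2(signal + 5) over the 8 samples for Casp1 (left, black) and Il18 (right, black) with the 5 genes of most similar pattern, whose root mean square difference from it is given in the legend. The Casp1 panel has polyclonal sample 3 and expansion 1 high and expansions 2 to 4 low for every gene, and the Il18 panel has expansion 1 far above the other samples.

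The wider pathway was taken in 5 lists without the 9 genes, by the brightest tested probe set per gene, which gave 66 genes. In none of the 3 comparisons did limma call a member (0 of 66, with 2, 5 and 7 at an unadjusted p under 0.05 over all pairs, in the alpha4-low pairs and for the difference between subclasses). Among all 22518 probe sets 731, 1150 and 1479 had such a p, and at most 0.0533% were called, so 0 calls among 66 genes does not set them apart from the rest. The lowest adjusted p was 0.516 for the alpha4-low pairs and 0.419 for the difference. Their median alpha4-low difference was -0.30 beside -0.07 for all tested probe sets. The lists were written with earlier results of these data known. The share of all probe sets with a negative difference was not counted, so nothing is read from the sign counts given per list.

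Inflammasome sensors and adaptors other than Nlrp3 and Pycard had 7 of 10 members with a negative alpha4-low difference and a median of -0.48, and 0 passed. The largest was that of Aim2, the sensor of cytosolic DNA, at -3.21 (SE 0.90, limma adjusted p = 0.663). Aim2 read 44.1, 166, 767 and 47.4 in polyclonal samples 1 to 4, 156 in expansion 1 and 13.8, 5.19 and 40.7 in expansions 2, 3 and 4. It was above background on 5 arrays, but not in polyclonal sample 1 or in expansions 2 and 3, so its differences in pairs 1, 2 and 3 involve readings below background. Its high partners were the less pure polyclonal samples 2 and 3, and the part of purity in its difference was not tested. Naip6, of the family of bacterial flagellin and secretion system sensors, had a difference of -2.0 (SE 0.52, limma adjusted p = 0.516), with 1187, 567, 1210 and 1488 in polyclonal samples 1 to 4, 1620 in expansion 1 and 66.3, 198 and 1116 in the others. Naip5 of the same family read lower in all 3 alpha4-low expansions and higher in expansion 1, with an alpha4-low difference of -1.04 (SE 0.42, limma adjusted p = 0.939). The difference between subclasses was -4.93 for Aim2 (SE 1.79, limma adjusted p = 0.560). For Nlrp10 it was -4.50 (SE 1.36, limma adjusted p = 0.419), with a polyclonal reading in mouse 1 of 7.58, below background.

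The other caspases and pyroptosis effectors had 13 of 13 members with a negative alpha4-low difference, but a median of only -0.37, and 0 passed. The median of all tested probe sets was -0.07. Casp8, the initiator of death receptor signalling, read 1989, 2062, 2200 and 2030 in polyclonal samples 1 to 4, 1602 in expansion 1 and 1941, 805 and 1617 in expansions 2, 3 and 4. Its difference was -0.62 (SE 0.43, limma adjusted p = 0.989). Casp6, an effector caspase, had one of -0.79 (SE 0.41, limma adjusted p = 0.966), with -0.51 in pair 1. Neither separated the subclasses as Casp1 and Casp4 did, with -0.31 and -0.28 for the difference between them. The remaining named members, Casp14, Ninj1 and Apaf1, had differences between subclasses of -2.24, -2.31 and -2.28. Their signs in pairs 2, 3 and 4 were mixed, with -2.34, -1.94 and 2.04 for Casp14 and 0.14, 1.33 and -1.78 for Ninj1. Apaf1 had 0.11, -2.06 and 0.10. Ninj1 read 25.6 in polyclonal sample 1, below the background of 48.2 there.

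Of the IL-1 family ligands and receptors only 4 of 12 genes on the array had a tested probe set. Il18bp, the gene of the secreted protein that binds and blocks IL-18, read 65.2, 12.1, 63.1 and 40.4 in polyclonal samples 1 to 4, 56.5 in expansion 1 and 58.5, 151 and 16.6 in the others, around background, with an alpha4-low difference of 0.67 (SE 0.74, limma adjusted p = 0.989). Sigirr, the gene of an inhibitory receptor of the family, read 186 in polyclonal sample 1 and 444 in the expansion. Its difference between subclasses was -1.83 (limma adjusted p = 0.881), and that of Il1rl2, a receptor chain for IL-36, was 1.53 (limma adjusted p = 0.950).

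Genes of the signalling path from the IL-18 receptor through MyD88 had a median alpha4-low difference of -0.19, with 14 of 22 negative, and a median difference between subclasses of 0.10. Myd88 itself read 353, 983, 443 and 348 in polyclonal samples 1 to 4, 373 in expansion 1 and 309.7, 356 and 286 in the others (alpha4-low difference -0.75, SE 0.44, limma adjusted p = 0.970). Tnfaip3, the gene of the NF-kB inhibitor A20, had -0.75 in the alpha4-low pairs (limma adjusted p = 0.966), Nfkbib -0.76 (limma adjusted p = 0.989) and Tollip -0.37 (limma adjusted p = 0.989).

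IL-12 receptor and IL-18 responsive genes had 13 of 17 members negative in the alpha4-low pairs (median -0.34) and in the difference between subclasses (median -0.73), and 0 passed in either. Ifng, the cytokine gene that IL-18 and IL-12 induce together, read 3487, 10780, 3202 and 3395 in polyclonal samples 1 to 4, 5875 in expansion 1 and 15926, 701 and 558 in expansions 2, 3 and 4. It was thus high in expansion 2 and low in expansions 3 and 4, although Il18r1 was high in all 3 (alpha4-low difference -1.41, SE 0.55, limma adjusted p = 0.939). The chemokine gene Ccl3 had a difference between subclasses of -2.56 (SE 0.92, limma adjusted p = 0.553). The stress-response genes Gadd45b and Gadd45g had -2.39 and -2.56 (limma adjusted p = 0.766 and 0.712), and Il2ra, the interleukin-2 receptor alpha gene, 2.84 (limma adjusted p = 0.786) at signals near background.

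**Figure D4:**
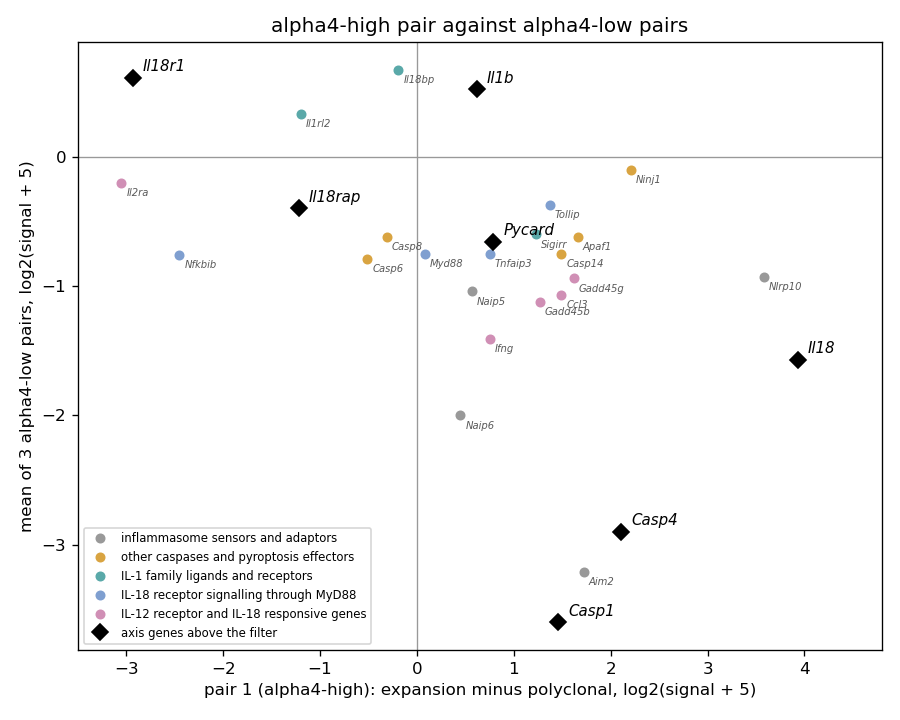
Paired log2(signal + 5) difference in the alpha4-high pair (horizontal) against the mean of the 3 alpha4-low pairs (vertical) for the 7 axis genes above the filter (black diamonds) and the pathway genes with the largest differences of each list (coloured points). Casp1, Casp4 and Il18 lie at the lower right, and Il18r1 lies at the left with a positive alpha4-low value (0.61). Aim2 also lies at the lower right, with readings below background in polyclonal sample 1 and expansions 2 and 3.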

How the data were processed

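RNA of 8 sorted CD8 T cell samples was measured on 8 Affymetrix mouse arrays. Per the labels' protocols, all RNA was prepared together, amplified in 2 rounds and biotinylated; the 3′ to 5′ signal ratio of Actb was 34.9 to 89.7. The submitters' processing notes name MAS5 (version not given in the sources used here) for the deposited intensity values, which came with no detection calls. Values were taken as log2(intensity + 5), so folds of dim probe sets are understated. The 64 control probe sets and those not above the median mean were left out, leaving 22518. limma 3.58.1 in R 4.3.3 was fitted with an intensity trend and mouse as a fixed block, since the design pairs samples by animal; deviations correlated within mice 1 to 4 at 0.374, 0.0771, 0.214 and 0.338. Two-sided p-values were adjusted by Benjamini-Hochberg over all 22518. In the fit with 2 subclasses the single alpha4-high pair is fitted exactly, so the spread within the fit comes from the alpha4-low pairs. The standard errors and p-values of the difference between subclasses therefore hold no clone-to-clone spread of the alpha4-high class. The code was also run on simulated data with large planted differences and no differences between mice, which does not show its performance on these data. The genes, lists, background level and alternatives were chosen with earlier results of these data known. Named were all probe sets of the 9 genes, for each pathway list the 3 largest differences in the alpha4-low pairs and between subclasses, and the 5 genes nearest to Casp1 and Il18. Alternatives covered the pseudocount, filter, scaling, variance prior, block, sort purity and omitted pairs. Platform names were used, and RefSeq changed 0 of 9 symbols. The NF-kB consensus replaced a looser form searched first, which more windows held, that of Casp1 among them. Marker lists for 8 cell types were read without a test.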

Additional observations from a re-analysis of the deposited data

Results flagged for a closer look

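A total of 4 opposed differences is listed, with no test, because the sign in the single alpha4-high pair was opposite to that in all 3 alpha4-low pairs. The paired difference of alpha4-low minus alpha4-high was -5.06 for Casp1, -5.01 for Casp4, -5.50 for Il18 and 3.54 for Il18r1, on the log2(signal + 5) scale. These genes were chosen on such values, so the differences were not tested here, and among all tested probe sets 8.96% had the first and 5.2% the second of these sign patterns. No polyclonal sample stood apart from the other 3 in any of the 12 probe sets by Dixon's criterion at 95%, which chance would pass in about 1 of 20 groups.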

How the results depend on the processing

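Of 24 differences of the 12 probe sets (alpha4-low mean and difference between subclasses), 16 kept their sign in every alternative run, among them all those of Casp1, Casp4, Il18, Il18r1, Gsdmd and the brightest Pycard probe set; 8 changed sign somewhere, all of them of Il18rap, Il1b, Nlrp3 or the dimmer Pycard probe sets. The alpha4-low mean of Casp1 ran from -4.31 to -2.72 over the pairs left out in turn. Pair 4 alone, a setting added after seeing the data, gave -3.25 for Casp1 and -0.46 for Il18. That pair comes from the only B10.BR mouse and holds the array with the differing scanner record. The Il18 difference between subclasses ran from -6.06 to -5.14 over the pairs left out. The replicate block (mouse) hardly moved them, with -3.73 for Casp1 and -5.40 for Il18 without it. Counts of called probe sets depended on the settings. In the alpha4-low comparison, 12 as reported, they were 22 with the filter at the 75th percentile, 6 with quantile normalization, and 0 without an intensity trend or without the replicate block, and between 18 and 148 with a pair left out (133 without pair 3 and 148 without pair 4). For the difference between subclasses, also 12, they were 0 with a pseudocount of 1, 29 with 32, 25 without a filter, 63 with the filter at the 75th percentile, 0 with quantile normalization or without a trend, 143 without the replicate block, and 64 to 266 with a pair left out. Over all pairs the count was 0, but 20 without pair 1 (0 to 20 with a pair left out). The cause of these shifts was not tested. Quantile normalization moved the median alpha4-low difference of all tested probe sets from -0.07 to 0.01, and that of pair 2 from -0.22 to 0.04. The median of the IL-12 receptor and IL-18 responsive list ran from -0.51 to -0.21 with a pair left out. Signals near background limit Nlrp3, Gsdmd and Il18bp, and low signals limit Il18 in the alpha4-low expansions.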

Other observations

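Across the 8 samples Il18r1 ran nearly opposite to Casp1. From the sample with the most Casp1 to the one with the least (expansion 1, polyclonal samples 3, 1, 4 and 2, then expansions 2, 4 and 3), Il18r1 read 3504, 24252, 26651, 30169, 36010, 47644, 42422 and 46672. In 26 of the 28 possible pairs of samples, the sample with more Casp1 had less Il18r1. Both genes were chosen with their paired differences known, which fixes the order within each mouse and bears on the other pairs. Samples of a mouse are also not independent, so the order is given as a description only. Casp4 followed the order of Casp1 in 27 of 28 pairs and Il18 in 25, while Il18rap, the partner chain of the receptor, opposed it in 17. Of all tested probe sets, 0.147% were at least as opposite to Casp1 as Il18r1 and 33.9% as Il18rap. At least as alike as Casp4 were 0.0888%, and as Il18 0.715%. The genes were chosen on their values, so nothing is read from these shares.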
